A study of Mus musculus with 8 samples.

Results

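DNA replication starts from origins that are prepared, or licensed, by loading the helicase made of Mcm2 to Mcm7, and it can finish only if deoxynucleotides are supplied as fast as they are used. This account describes 10 mouse genes of that machinery in embryonic skin: the 6 helicase subunits, the catalytic primase subunit Prim1, the sliding clamp Pcna and the ribonucleotide reductase subunits Rrm1 and Rrm2. The members were all probe sets, on both array types used, whose platform annotation gives exactly 1 symbol and that symbol is 1 of the 10. The 10 genes are among 13675 symbols that either chip names in this way. They have 13 of the 12488 probe sets of the A chip and 0 of the 12477 probe sets of the B chip, so every member value below comes from the A chip.

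Whole skin was taken at E18.5 (embryonic day) from p63 null and wild-type embryos of crosses between p63 heterozygous mice, and RNA from 2 embryos of each genotype was hybridised to Affymetrix arrays. The 4 groups were null and wild type on the A chip and null and wild type on the B chip, with 2 arrays each. The labels name no treatment, strain, sex or p63 allele beyond null, and they do not say which part of the gene is altered. The question is how transcript levels in skin change when an embryo lacks p63, the transcription factor that stratified epithelia need in order to form.

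The probe set of Trp63, the gene for p63, read 379.3 and 347.1 in the wild-type arrays, against 61.9 and 46.6 in the null arrays. The sources used here do not say whether it lies inside the altered part of the gene. On the A chip 1653 of 7453 tested probe sets (22.2%) were lower and 1646 (22.1%) higher in the null by limma at an adjusted p of 0.05. Signals are MAS5 values, linear intensities per probe set. Each log2 fold change is the null mean less the wild-type mean of log2(signal + 12.9), which understates the change of low genes. Levels of different probe sets cannot be compared with each other. Because whole skin is a mixture, fewer cells of a type and less RNA per cell cannot be told apart.

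The helicase subunits are loaded as an inactive ring before S phase and unwind DNA once they are activated. Primase lays down the short RNA that a polymerase extends, Pcna holds the polymerases on the template, and ribonucleotide reductase turns ribonucleotides into deoxyribonucleotides. In skin these genes are known as marks of cycling cells, which in the epidermis lie mainly in the basal layer and in the hair follicle matrix. Many of them are known targets of E2F factors, the transcription factors that pocket proteins such as Rb1 hold in check until a cell enters S phase.

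The promoter sequences of the members are shown because most of these genes moved together and because E2F sites are a known common feature of the family. RefSeq (GRCm38.p6) promoter windows of 250 bases before to 50 after an annotated start were matched by symbol for 9 of the 10 genes in 10 windows, Mcm7 having 2 starts, and Mcm4 was not matched. The stretches before the start are given for Prim1, with the largest fall, for Mcm5, which did not pass the test, and for Mcm6, whose signal was too low to test. Capitals mark E2F-type letters, that is TTGGCGC or TTCCCGC or TTCGCGC or TTGCCGC on either strand.
Prim1, chr10:128014965-128015214, plus strand: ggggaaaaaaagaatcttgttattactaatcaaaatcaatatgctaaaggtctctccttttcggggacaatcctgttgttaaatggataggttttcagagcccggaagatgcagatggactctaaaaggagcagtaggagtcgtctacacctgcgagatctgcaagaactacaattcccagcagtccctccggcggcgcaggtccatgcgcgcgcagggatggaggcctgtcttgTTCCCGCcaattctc
Mcm5, chr8:75109259-75109508, plus strand: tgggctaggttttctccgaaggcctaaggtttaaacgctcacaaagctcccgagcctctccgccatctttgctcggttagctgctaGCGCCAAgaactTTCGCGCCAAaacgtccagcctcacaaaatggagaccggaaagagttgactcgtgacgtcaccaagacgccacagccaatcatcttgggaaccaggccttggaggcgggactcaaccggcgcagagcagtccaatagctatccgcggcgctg
Mcm6, chr1:128359706-128359955, minus strand: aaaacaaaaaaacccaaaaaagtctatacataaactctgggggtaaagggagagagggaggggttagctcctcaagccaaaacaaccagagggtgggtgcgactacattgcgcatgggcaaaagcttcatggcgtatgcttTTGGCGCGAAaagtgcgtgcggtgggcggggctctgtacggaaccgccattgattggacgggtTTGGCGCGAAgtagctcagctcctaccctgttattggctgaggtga

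For the other members with a match, the 30 bases that hold most of the matched letters are given.
Mcm3, chr1:20820264-20820293, minus strand: GCGGGAAaacttgggaagttTTGGCGCCAA
Mcm7, chr5:138171857-138171886, minus strand: ggtcacatgggtgacgacgtTTCGCGCCAA
Mcm7 at its other start, chr5:138171362-138171391, minus strand: ggcgctagcgaaTTCCCGCgtccactggag
Rrm1, chr7:102441616-102441645, plus strand: caggagaactcgTTCCCGCcaggtccgctt
Rrm2, chr12:24708007-24708036, plus strand: gcaccaacctcaGCGGCAAcgcccgcccgg

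E2F-type letters were present in 8 of the 10 member windows (80.0%), against 9.57% of all 32851 RefSeq windows of the same length. The windows of Mcm2 and Pcna held none. In Mcm3, Mcm5, Mcm6 and the first Mcm7 start, neighbouring matches lay on opposite strands and shared bases. The letters CCAAT, the core bound by NF-Y and a common partner of E2F sites in cell cycle promoters, were present on either strand in 10 of 10 member windows and in 37.4% of all windows. The CHR letters TTTGAA or TTCGAA, an element of mitotic promoters, were in 2 of 10 (20%) and in 19.2% of all windows. These are letter matches, base composition was not matched, and they describe the windows only.

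**Figure D1:**
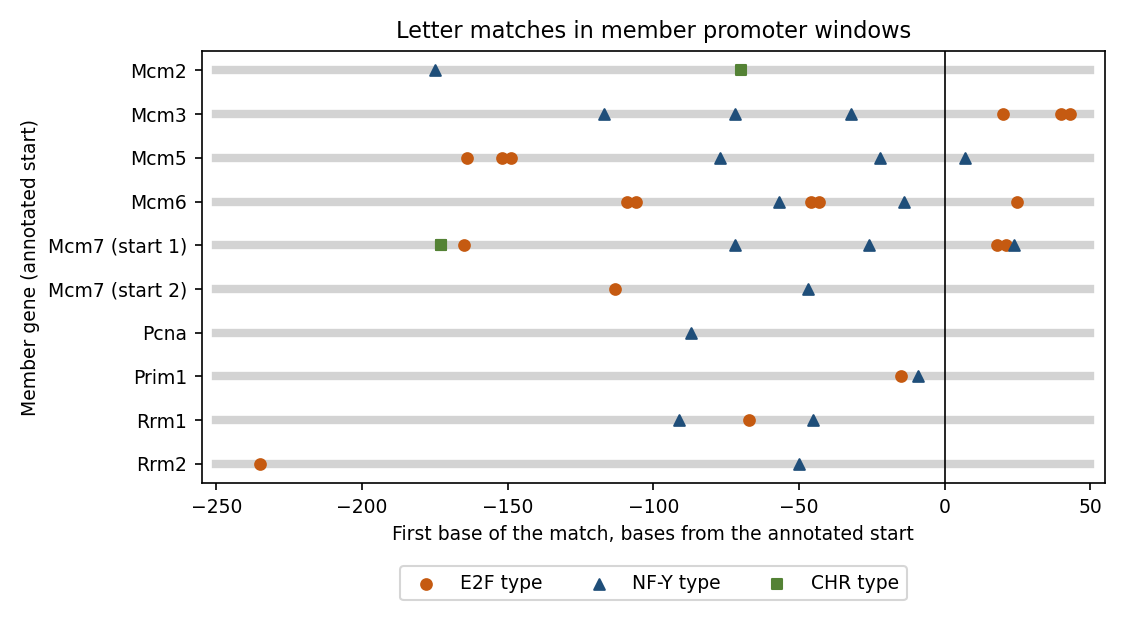
Each row is 1 annotated start of a member gene, the horizontal axis is the distance of a match's first base from that start in bases, and symbols mark E2F-type, NF-Y-type and CHR-type letter matches on either strand. E2F-type matches lie in 8 of the 10 windows, while NF-Y-type matches lie in all 10.

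Of the 13 member probe sets 10 had enough signal to be tested, and 9 of these fell in the null while 0 rose, by limma with Benjamini-Hochberg adjustment (0 rose at an unadjusted p of 0.05 as well). The 9 probe sets stand for 8 genes: Mcm2, Mcm3 (2 probe sets), Mcm4, Mcm7, Prim1, Pcna, Rrm1 and Rrm2. Across all tested probe sets of the chip 22.2% fell. The log2 fold changes ran from -1.95 to -0.18 with a median of -0.82, beside a median of 0.02 over all tested probe sets. Prim1 was the 1 tested member whose null mean lay under the level for testing, so it entered through its wild-type arrays. With no filter on low signal, 10 of all 13 member probe sets fell and 0 rose (0 at an unadjusted p of 0.05), where 12.3% of 12422 probe sets fell and 11.9% rose.

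Both null arrays lay below both wild-type arrays for 9 of the 10 tested probe sets, where 36.2% of all tested probe sets did so. On the log2 scale the 2 wild-type arrays differed by a median of 0.17 and at most 0.45 over the tested members, and the 2 null arrays by a median of 0.09 and at most 0.43. The widest of these gaps were those of Mcm5 in wild type and Mcm7 in the null. Without wild-type replicate 2 the number of member probe sets that fell was 5, because Mcm2 and both probe sets of Mcm3 missed the threshold and Prim1 was not tested. Without wild-type replicate 1 it was 7, Mcm2 missing the threshold and Prim1 again not being tested.

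**Figure D2:**
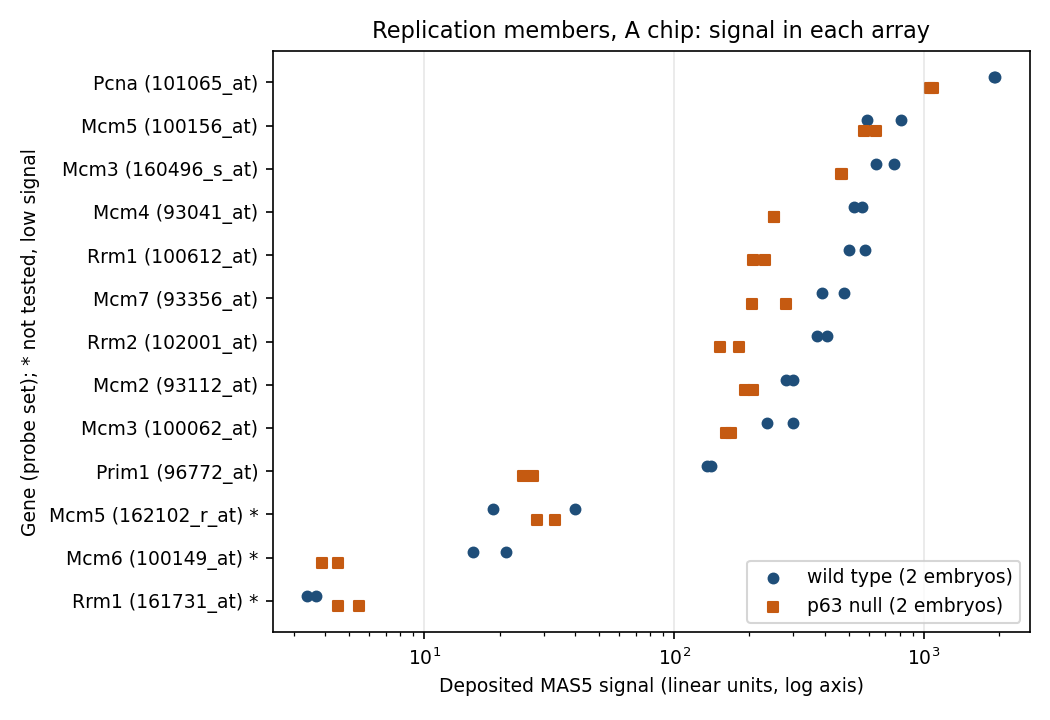
Deposited MAS5 signal (linear units on a log axis) of the 13 member probe sets in the 2 wild-type arrays (circles) and the 2 null arrays (squares) of the A chip, with an asterisk at the 3 probe sets that were not tested. Null and wild-type points are apart for every tested probe set except that of Mcm5, where they overlap between 590.5 and 640.1.

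The log2 fold changes of the tested helicase subunits ran from -1.08 to -0.18, with no test of a difference between subunits. Mcm4 (93041_at), a subunit of the catalytic core of the helicase with Mcm6 and Mcm7, read 523.1 and 562.3 in the wild-type embryos, against 249.7 and 250.1 in the null embryos. Both null values were less than the lower wild-type value by far more than either pair differed. This was a 2.11-fold fall (log2 fold change -1.08, SE 0.13, adjusted p = 0.000204 by limma), the largest among the tested subunits.

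Mcm7 (93356_at) read 476.6 and 389.3 in wild type, against 281.4 and 204.9 in the null. The groups did not overlap, though the arrays within each genotype differed more than for Mcm4. The fall was 1.75-fold (log2 fold change -0.81, SE 0.18, limma adjusted p = 0.00569).

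Mcm3 has 2 probe sets that passed the filter and they share the gene, so they count once. The first (100062_at) read 234.8 and 298.3 in wild type, against 161.0 and 169.3 in the null. The second (160496_s_at) read 639.2 and 760.3 in wild type, against 469.8 and 466.9 in the null. Both were lower in each null array than in each wild-type array, with log2 fold changes of -0.64 (SE 0.17, limma adjusted p = 0.0126) and -0.56 (SE 0.13, limma adjusted p = 0.00746). Without wild-type replicate 2 their limma adjusted p-values were 0.124 and 0.0783, and over 13 settings they ranged from 0.00929 to 0.124 and from 0.00502 to 0.0783.

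Mcm2 (93112_at), with an N-terminal tail that also binds histones, read 281.1 and 298.0 in wild type, against 192.3 and 207.0 in the null. The fall was the smallest among the members that passed, 1.42-fold (log2 fold change -0.51, SE 0.14, limma adjusted p = 0.0190). It missed the threshold when wild-type replicate 1 was left out (adjusted p = 0.0551) or wild-type replicate 2 was (0.114), and ranged from 0.0182 to 0.114 over 13 settings.

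Mcm5 (100156_at), which forms the gate of the ring with Mcm2, read 809.1 and 590.5 in wild type, against 640.1 and 574.9 in the null. The groups overlapped, the first null embryo reading above the second wild-type embryo. The log2 fold change was -0.18 with a 95% interval from -0.54 to 0.17 (limma adjusted p = 0.372), so a fall of up to 1.46-fold is inside the interval and the fall of Mcm4 is outside it. Whether Mcm5 and the other subunits differ in their change was not tested. With wild-type replicate 1 left out its estimate was 0.04, and with replicate 2 of that genotype left out it was -0.41, and it passed in 0 of 13 settings. The other Mcm5 probe set (162102_r_at) read 18.9 and 40 in wild type, against 33.4 and 28.2 in the null, too low to test.

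Mcm6 (100149_at) was also too low to test. Its probe set read 21.3 and 15.7 in wild type, against 4.5 and 3.9 in the null, so that all 4 arrays lay below the level for testing while both null arrays were the lower ones. With no filter its log2 fold change was -0.87 (SE 0.18, limma adjusted p = 0.0185). At signals of this size the added 12.9 sets much of the log2 value.

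Primase and the clamp serve the step after unwinding. Prim1 (96772_at), the catalytic subunit of primase, read 135.7 and 139.9 in wild type, against 27.2 and 24.9 in the null. The 2 embryos of each genotype were close together and the genotypes far apart. The log2 fold change was -1.95 (SE 0.21, limma adjusted p = 0.000110), lower than that of 98.3% of all tested probe sets. Because the null signal is low, the size depends on the constant added before the logarithm: the estimate was -2.29 with the 5th percentile of signal added and -1.28 with the 40th.

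Pcna (101065_at) read 1928.3 and 1901.0 in wild type, against 1082.1 and 1057.9 in the null. Replicates differed by little and the groups were apart. The fall was 1.78-fold (log2 fold change -0.83, SE 0.11, limma adjusted p = 0.000323), and its estimate kept between -0.86 and -0.81 over 13 settings.

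Both subunits of ribonucleotide reductase fell by more than 2-fold. Rrm1 (100612_at), the large subunit with the catalytic and control sites, read 501.5 and 578.8 in wild type, against 231.2 and 206.1 in the null. The fall was 2.39-fold (log2 fold change -1.25, SE 0.14, limma adjusted p = 0.000147). Rrm2 (102001_at), the small subunit that carries the radical and is made mainly in S phase, read 408.2 and 371.8 in wild type, against 180.9 and 153.1 in the null. The fall was 2.24-fold (log2 fold change -1.17, SE 0.15, limma adjusted p = 0.000319). The groups of both genes did not overlap. The other Rrm1 probe set (161731_at) read between 3.4 and 5.5 in the 4 arrays and was not tested.

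With Mcm4 and Prim1, Rrm1 and Rrm2 made up the 4 member probe sets that passed and fell at least 2-fold, as 6.86% of all tested probe sets did.

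**Figure D3:**
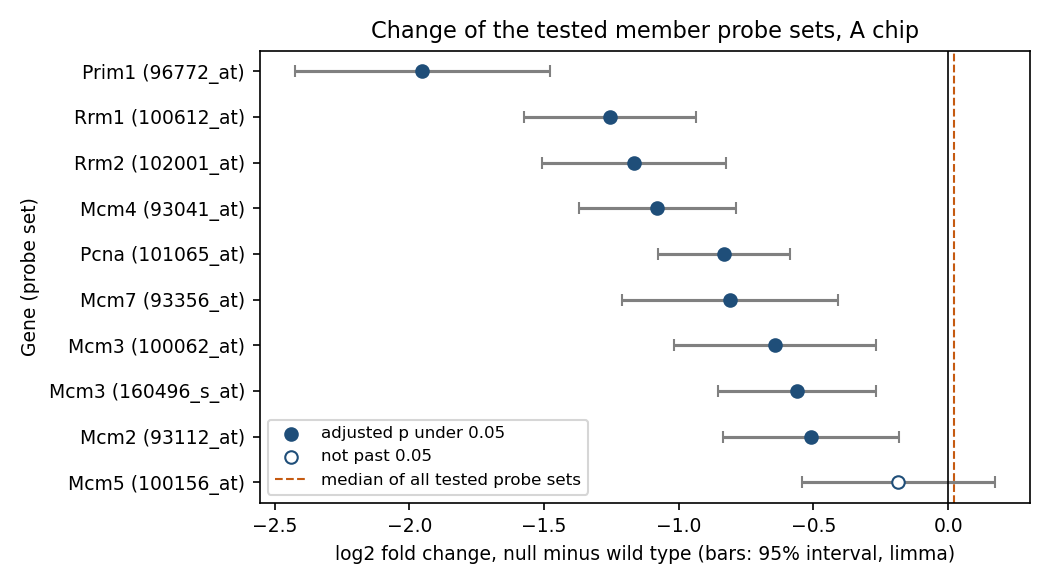
Log2 fold change, null minus wild type, of the 10 tested member probe sets of the A chip, with 95% intervals from limma, filled where the adjusted p was under 0.05, and a dashed line at the median of all tested probe sets (0.02). Prim1 lies lowest at -1.95, and the interval of Mcm5 alone reaches across 0.

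The rest of the pathway was read through 116 other genes in 8 lists, each gene by its tested probe set with the highest mean signal. On the A chip 34 of 75 tested genes fell while 6 rose, the median being -0.42, beside 22.8% that fell, 22.5% that rose and a median of 0.01 over all 5779 tested genes. Of 26 tested on the B chip 6 fell while 2 rose, the median being -0.23, beside 16.1% that fell, 16.1% that rose and a median of 0.04 over 5345 genes. Of the genes that fell, 3 on the A chip (Dna2, Nasp and Hells) and 1 on the B chip (Gins1) had a null mean under the level for testing, so they entered through their wild-type arrays. The B-chip counts were 2 that fell without wild-type replicate 1, and 1 that fell and 1 that rose without wild-type replicate 2.

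Genes that mark and license origins fell in 5 of 6 A-chip cases, and 0 rose by limma (0 at an unadjusted p of 0.05). Their median was -0.88, and 22.8% of all tested A-chip genes fell. Orc4, a subunit of the origin recognition complex, read 268.0 and 297.8 in wild type, against 122.3 and 103.1 in the null (log2 fold change -1.24, SE 0.17, limma adjusted p = 0.000371). Geminin (Gmnn), the inhibitor of the loading factor Cdt1, read 215.6 and 209.4 in wild type, against 82.7 and 88.3 in the null (-1.20, SE 0.17, limma adjusted p = 0.000499). Loader and inhibitor were both among those that fell. The other 3, named after their values were seen, were Orc6 (-0.98), the loader Cdc6 (-0.78) and Cdt1 itself (-0.45), and Orc5 did not pass (-0.12, limma adjusted p = 0.639). Neither of 2 tested genes passed on the B chip, Orc3 having a log2 fold change of -0.07 (limma adjusted p = 0.812).

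Genes that switch the loaded helicase on fell in 3 of 6 A-chip cases and 2 of 6 B-chip cases, with 0 that rose on either by limma (0 at an unadjusted p of 0.05 on both). Gins1, a subunit of the GINS complex that joins Cdc45 and the Mcm ring in the active helicase, read 544.4 and 497.8 in wild type, against 72.3 and 44.9 in the null. Its log2 fold change was -2.36 (SE 0.25, limma adjusted p = 0.000647, B chip, where 54.3 is added to each signal). With its low null signal the estimate was -2.92 with the 5th percentile added and -1.61 with the 40th, and Gins1 was not tested when either wild-type array was left out. Tipin and Topbp1 fell by 1.01 and 0.92 on the log2 scale, and Cdc45, named after its value was seen, by 0.46. Tipin missed the threshold without wild-type replicate 2 (limma adjusted p = 0.0699). Clspn, the checkpoint mediator claspin, fell by 0.58 on the B chip (limma adjusted p = 0.0390), and missed the threshold without null replicate 1 (0.0784), wild-type replicate 1 (0.188) or wild-type replicate 2 (0.156) and with no filter (0.0670).

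Among polymerases and primase partners 3 of 9 fell and 1 rose on the A chip, with a median of -0.31. Over all tested A-chip genes 22.8% fell and 22.5% rose. Pola1, the catalytic subunit of the polymerase that works with primase, read 242.9 and 312.2 in wild type, against 95.6 and 88.9 in the null (log2 fold change -1.46, SE 0.18, limma adjusted p = 0.000237). Pold4, the smallest subunit of polymerase delta, went the other way, reading 162.2 and 120.0 in wild type, against 282.5 and 247.4 in the null (0.86, SE 0.18, limma adjusted p = 0.00460). The primase large subunit Prim2 had a log2 fold change of -0.73 but an SE of 0.30 (limma adjusted p = 0.0753), and Pole3 (-0.55) and Pole4 (-0.73) passed. These 3 were named after their values were seen. The B chip gave 0 of 2 that passed (0 at an unadjusted p of 0.05), Pole having a log2 fold change of 0.31 (limma adjusted p = 0.138), and it passed without null replicate 2 (0.45, adjusted p = 0.0265).

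Single-strand binding, clamp loading and lagging strand genes fell in 10 of 16 A-chip cases and 0 rose by limma (0 at an unadjusted p of 0.05). Their median was -0.70, and 22.8% of all tested A-chip genes fell. Rfc4, a subunit of the loader that opens Pcna, read 242.7 and 246.5 in wild type, against 80.6 and 70.0 in the null (log2 fold change -1.55, SE 0.17, limma adjusted p = 0.000127). Rpa3, the small subunit of the single-strand binding protein, fell by 1.33. The lagging strand ligase Lig1 and the topoisomerase Top1, named after their values were seen, had values of 0.01 and 0.02, with limma adjusted p-values of 0.968 and 0.889. On the B chip the 1 tested gene, the ribonuclease subunit Rnaseh2b, fell by 0.61 (limma adjusted p = 0.0159), which missed the threshold once wild-type replicate 2 was left out (0.114).

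Genes of nucleotide supply went both ways. In the deoxynucleotide list 4 of 11 fell and 2 rose on the A chip, where 22.8% of all tested genes fell and 22.5% rose. Nme1, a nucleoside diphosphate kinase, fell by 1.06 (limma adjusted p = 0.000433), and Tk1 (-0.75), Dtymk (-0.74) and Dck (-0.53), the kinases of thymidine, thymidylate and deoxycytidine, named after their values were seen, fell as well. Samhd1, an enzyme that breaks deoxynucleotides down and is abundant in myeloid cells, rose from 61.6 and 65.0 to 185.4 and 199.3 (log2 fold change 1.43, SE 0.18, limma adjusted p = 0.000264). The mitochondrial serine enzyme Shmt2 rose by 0.70 (limma adjusted p = 0.0109). Beside the rise of Samhd1, all 10 leukocyte markers tested rose, and their part in it was not tested. Their summed signal was 3658 and 3284 in wild type, against 9898 and 10494 in the null, with no value at 0. Of these markers Ptprc had a wild-type mean under the level for testing, so it entered through its null arrays. The B chip gave 0 of 4 that passed (0 at an unadjusted p of 0.05), Shmt1 having a log2 fold change of -0.80 (SE 0.39, limma adjusted p = 0.162) with null arrays of 403.5 and 132.3. Shmt1 passed without null replicate 1 (-1.45, adjusted p = 0.000848) and with the replicate number as a block (adjusted p = 0.0285).

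Genes of base synthesis went both ways. Of 11 purine and pyrimidine genes 3 rose and 1 fell on the A chip, with a median of -0.11. Of all tested A-chip genes 22.5% rose and 22.8% fell, so the number that rose is near that share. Of 5 on the B chip 1 rose and 2 fell, with a median of -0.40, where 16.1% of all tested genes rose and 16.1% fell. Whether this list differs from the members was not tested. Ctps, which makes CTP, read 408.0 and 498.5 in wild type, against 720.5 and 805.5 in the null (log2 fold change 0.74, limma adjusted p = 0.00250), and Dhodh, an enzyme of pyrimidine synthesis in mitochondria, rose by 0.52 (limma adjusted p = 0.0123), which missed the threshold once wild-type replicate 2 was left out (0.0971). Impdh1, an enzyme of guanine nucleotide synthesis, rose on both chips, by 0.94 (SE 0.29, limma adjusted p = 0.0272) on the A chip and by 1.16 (SE 0.13, limma adjusted p = 0.000814) on the B chip. The A-chip call of Impdh1 was lost without null replicate 2 (0.138), without wild-type replicate 2 (0.155) and with no filter (0.0908). The 1 that fell on the A chip was Cmpk1 (-0.56), chosen with its value in view. On the B chip Prps2, which makes the ribose donor of nucleotides, fell by 1.28, and Gmps, named after its value was seen, by 0.58.

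Genes that pack new DNA fell in 7 of 9 A-chip cases and 0 rose by limma (0 at an unadjusted p of 0.05). Their median was -0.94, and 22.8% of all tested A-chip genes fell. Hells, a chromatin remodeller needed for DNA methylation, read 155.7 and 183.2 in wild type, against 35.1 and 34.8 in the null (log2 fold change -1.93, SE 0.20, limma adjusted p = 9.31e-05). Its estimate was -2.19 with the 5th percentile of signal added and -1.34 with the 40th. The histone chaperone Nasp fell by 1.42 (limma adjusted p = 0.000353), with -1.59 and -1.03 under the same alternatives.

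Few E2F factors and pocket proteins passed the threshold, near or under the shares over all tested genes. Those shares were 22.8% that fell and 22.5% that rose on the A chip, and 16.1% each way on the B chip. On the A chip 1 of 7 fell and 0 rose by limma (0 at an unadjusted p of 0.05), with a median of -0.20. E2f8, an atypical E2F that represses and is itself induced in S phase, fell by 0.82 (limma adjusted p = 0.00696). Tfdp1, the partner of E2F factors, had a value of -0.36 (limma adjusted p = 0.0551), and passed under 4 of the alternatives, its adjusted p being lowest without null replicate 2 (0.0264). E2f1 and Rb1, named after their values were seen, had values of 0.18 and 0.33 with limma adjusted p-values of 0.434 and 0.202. Of 6 tested on the B chip, E2f3 fell by 0.43 (limma adjusted p = 0.0481), and Tfdp2 rose by 0.71 (limma adjusted p = 0.0170). The call of Tfdp2 was lost without wild-type replicate 2 (0.125). That of E2f3 was lost without each array in turn, with median centring, no filter, no variance trend or the replicate block, its adjusted p reaching 0.256.

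The shares of windows with E2F-type letters were also counted by call, with no test of the difference. They were in 48.7% of the 39 windows of other replication genes that fell on the A chip and in 44.7% of the 38 windows of those that did not pass, while 9.57% of all windows held them. Among the 7 windows of A-chip genes that rose, 1 (14.3%) held them. For B-chip genes they were in 3 of 5 windows of those that fell, 9 of 12 of those that did not pass and 0 of 4 of those that rose. Among the members, Mcm3, Mcm7, Prim1, Rrm1 and Rrm2 carried such matches and fell, and Mcm2 and Pcna carried none and fell. Mcm5 carried 3 and did not pass, with an interval from -0.54 to 0.17 for its log2 fold change. Mcm6 carried matches and was too low to test, and Mcm4 had no window. A link between these letters and the calls was not tested.

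**Figure D4:**
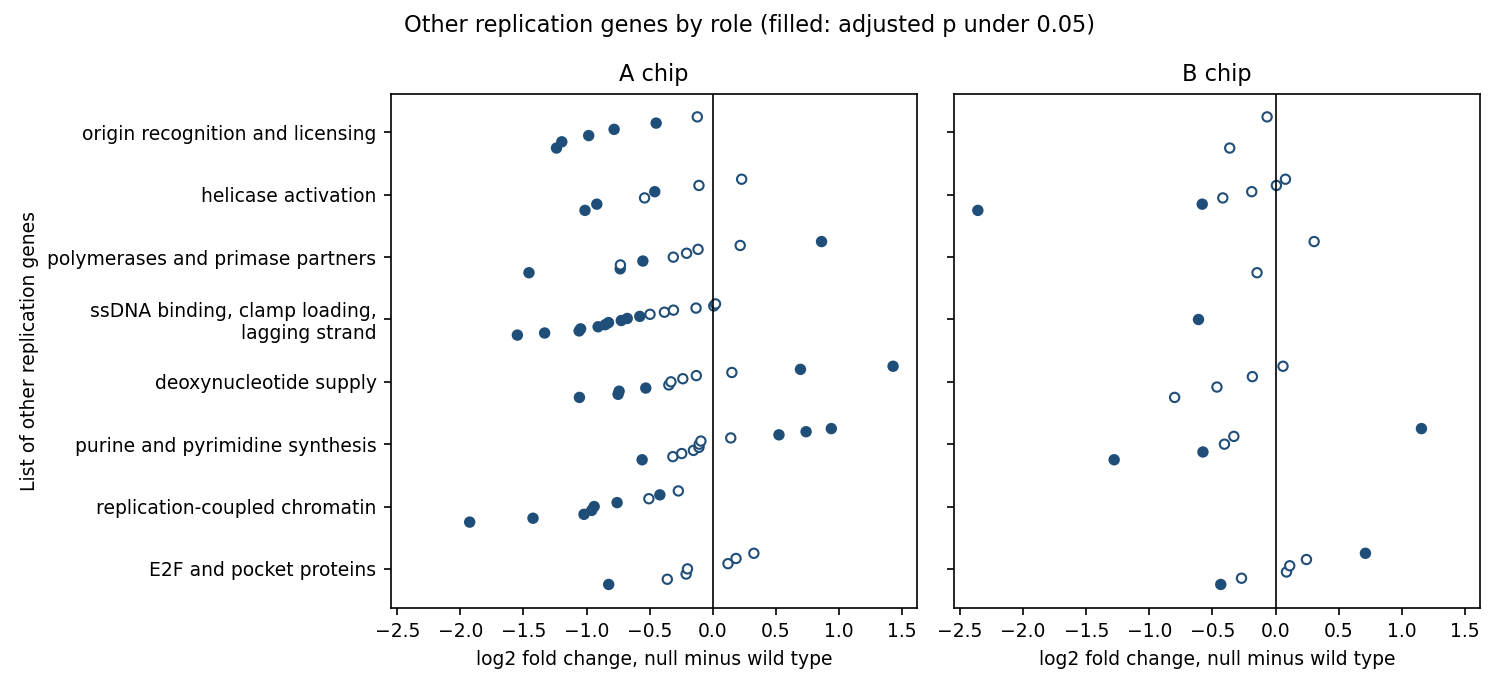
Log2 fold change, null minus wild type, of each tested gene of the 8 lists of other replication genes on the A chip (left) and the B chip (right), filled where the limma adjusted p was under 0.05. On the A chip, filled points of origin licensing, lagging strand and chromatin genes lie below 0. Those of the purine and pyrimidine list lie on both sides (of 11 genes 3 rose and 1 fell, median -0.11). The number that rose there is near the 22.5% over all tested genes.

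Other transcripts moved with the members. The 11 tested genes of mitosis fell in 10 cases and 0 rose by limma (0 at an unadjusted p of 0.05), with a median of -0.78 beside -0.82 for the tested member probe sets. Most keratinocyte and hair follicle markers fell as well. Of 7 basal keratinocyte markers 6 fell, with a median of -2.96 and a summed signal of 11263 and 11219 in wild type against 1185 and 912 in the null. Of 9 suprabasal and cornified markers 9 fell, with a median of -4.41 and sums of 33154 and 31682 against 3331 and 3919. Of 8 hair follicle markers 7 fell, with a median of -2.75 and sums of 3497 and 3472 against 754 and 712. These are A-chip values, and 22.8% of all tested A-chip genes fell. Trp63, Dsc1, Ivl, Alox12b, Serpinb5, Krt25, Krt27, Dlx3 and Gata3 had a null mean under the level for testing. They entered through their wild-type arrays, as Dsg1a and Gata3 did on the B chip, so their falls bear on these counts and medians. On the B chip 4 of 4, 2 of 2 and 4 of 4 markers of the same lists fell, with medians of -3.05, -3.24 and -1.69. Of all genes tested there, 16.1% fell.

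Many markers of other skin cells went up on the A chip, where 22.5% of all tested genes rose. The numbers that rose were 10 of 10 for skeletal muscle (median 1.41, sums of 9503 and 9357 in wild type against 18547 and 20243 in the null), 8 of 9 for adipocytes (median 2.01, sums of 7197 and 6881 against 18079 and 19842) and 6 of 8 for endothelium (median 0.86, sums of 2332 and 2490 against 4256 and 4811). For dermal fibroblasts 4 of 9 rose (median 0.38, sums of 33026 and 31317 against 35886 and 42984) and for erythroid cells 3 of 5 (median 0.43, sums of 17371 and 16119 against 18903 and 23390). None of the values behind these sums was 0, and 0 of the markers in these 5 lists fell by limma (0 at an unadjusted p of 0.05). The fibroblast markers Lum (-0.10) and Twist2 (-0.22) had null arrays below the wild-type arrays without passing. Ucp1 and Plin4 had a wild-type mean under the level for testing, so they entered through their null arrays. On the B chip 2 of 3 endothelial markers rose, Flt1 having a value of -0.03, and 0 of 1 erythroid marker did, Tfrc having 0.19. On the A chip the 3' to 5' signal ratio of beta-actin, which rises with RNA breakdown, was 1.63 and 1.69 in wild type, against 1.27 in each null array. The same ratio of Gapdh was 1.47 and 2.46 in wild type, against 1.25 and 1.45 in the null, so wild-type replicate 2 stood highest and wild-type replicate 1 lay near null replicate 2. It was also highest in wild-type replicate 2 on the B chip (2.66). Wild-type replicate 2 is the array without which 5 member probe sets fell. The part of cell mixture and of RNA quality in the fall of the members was not tested.

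**Figure D5:**
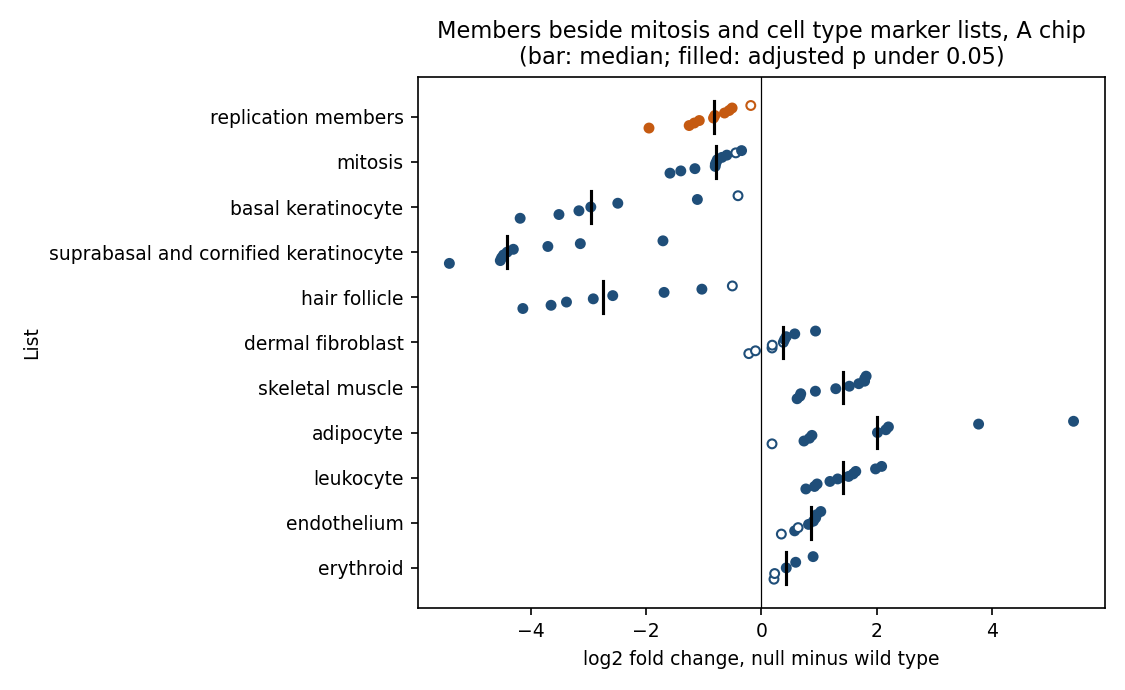
Log2 fold change, null minus wild type, on the A chip of the 10 tested member probe sets (top row), the mitosis list and the 9 cell type marker lists, with a bar at each median and points filled where the limma adjusted p was under 0.05. The members (median -0.82) and the mitosis list (-0.78) lie between the keratinocyte lists, with medians of -2.96 and -4.41, and the lists of muscle, fat and leukocytes, with medians of 1.41, 2.01 and 1.42.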

How the data were processed

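RNA from 8 array hybridisations of embryonic skin was analysed, 4 per chip. Biotin-labelled total RNA came from TriZol extraction with RNeasy clean-up, per the labels' protocols. The submitters' processing notes name MAS5, without its version or detection calls, as the source of the deposited linear intensities. The arrays of a chip had nearly equal 2% trimmed means (250.1 to 250.2 for the A chip and 500.1 for the B chip), which shows that scaling preceded deposit. The number of arrays limits the precision.

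Each chip was rescaled to 1 trimmed mean, the 20th percentile of its signals (12.9 and 54.3) was added and log2 values were computed from the authors' intensities. Each chip's 66 control probe sets were dropped, and probe sets with a mean log2 value above the 40th percentile were tested (7453 and 7446). Models were fitted with limma 3.58.1 in R 4.3.3 (lmFit, then eBayes with an intensity trend, with two-sided tests). The Benjamini-Hochberg adjustment ran over the tested probe sets of a chip, with a threshold of 0.05. The fit was also run on simulated arrays, with changes placed only in probe sets above the median level. That run cannot show how changes at low signal are recovered. Groups were taken from the sample titles. Gene names come from the platform annotation, which can be old, with RefSeq (GRCm38.p6) symbols for 10839 of 10855 A-chip and 10572 of 10603 B-chip probe sets with 1 symbol.

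The members, gene lists and tests were chosen with earlier results of these data known, and the motifs after the data were seen. The genes named were all member probe sets and, in each list and chip, the 2 largest changes past the threshold with groups apart, every gene past it against the direction of most of its list and, where fewer than 2 passed, the tested gene with the highest signal. The 13 settings were the main one and alternatives in centring, quantile normalization, offset, filter, variance trend, the replicate block and each array left out. The genotypes share replicate numbers, but nothing in the labels pairs embryos across genotypes.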

Additional observations from a re-analysis of the deposited data

How the results depend on the processing

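With only 2 embryos per genotype, single arrays moved the counts. With each array left out in turn, A-chip probe sets that fell numbered 1052 to 1797 (1653 with all arrays) and those that rose 1075 to 1579 (1646), while for the B chip these were 544 to 1354 (1106) and 575 to 1244 (1083). Member probe sets that fell numbered 5 to 9 (9), other replication genes that fell 27 to 37 on the A chip (34), against 1 to 8 for the B chip (6), and those that rose 4 to 7 (6) and 1 to 3 (2). The lowest counts of member probe sets and of the B-chip genes came without wild-type replicate 2. A fit without an array leaves 1 array in a genotype, which is assumed to vary like the others. With the lowest-mean probe set for each gene, 1 replication gene rose on the B chip. With the filter at the 60th percentile 8 member probe sets fell, Prim1 not being tested. The log2 fold change of Mcm5 ran from -0.41 to 0.038 with each array left out, changing sign without wild-type replicate 1, and that of Orc3 from -0.27 to 0.14, changing sign without null replicate 2 (0.05) and without wild-type replicate 2, all without passing. Of the values of single genes under alternatives, 409 kept their direction and side of the threshold, 23 lost a call, 7 gained 1 and 3 changed sign. Same-numbered null and wild-type arrays share only a number: their deviations from the genotype means correlated across probe sets at 0.04 (A chip) and -0.05 (B chip, with its own probe sets). With the replicate block 9 member probe sets fell, and 35 and 6 other replication genes fell on the 2 chips. The replicate block gave 1694 probe sets that fell and 1674 that rose for the A chip, while the B chip had 1182 and 1229. The member counts have no B-chip value, because the B chip holds no member.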

Other observations

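Of the other replication genes, 6 were tested on both chips, through different probe sets. Rnaseh2b, a subunit of the ribonuclease that clears RNA from DNA, fell on both, with log2 fold changes of -0.85 (limma adjusted p = 0.00177) for the A chip and -0.61 (0.0159) for the B chip. Impdh1 rose on both, by 0.94 and 1.16. Shmt2 rose by 0.70 on the A chip (adjusted p = 0.0109), while its B-chip probe set had a value of -0.18 (adjusted p = 0.564), so its direction depends on the probe set. Pold3, Rrm2b and Shmt1 passed on neither chip, with A-chip values of -0.21, -0.24 and -0.35 against B-chip values of -0.15, 0.06 and -0.80. Rrm2b, the ribonucleotide reductase subunit that serves resting and damaged cells, therefore had no call beside the falls of Rrm1 and Rrm2. Its A-chip probe set was low, with null arrays of 33.1 and 69.9 and a null mean under the level for testing. Whether its change differs from those of Rrm1 and Rrm2 was not tested.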
